A study of Mus musculus with 21 samples.

Results

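The mitochondrial genome was represented by 37 of the 45706 genes in the deposited expression table, taken as every gene whose symbol starts with mt-. They comprised 13 genes of proteins (mRNAs), 2 of ribosomal RNAs and 22 of transfer RNAs, all annotated on chromosome M of GRCm38. Expression was given as TPM, a level per gene length that is put on the same total in every library. All 13 mRNAs and both rRNAs reached at least 1 TPM in at least 10 of the 21 libraries and entered the tests, and none of the tRNAs did.

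Total RNA came from cells sorted for CD31, an endothelial surface protein, out of tumours of E0771.lmb, a mouse breast carcinoma line grown in adult mice. The KO mice were Shb iECKO animals, which carry floxed Shb (Shb flox/flox) and Cdh5-CreERt2, a tamoxifen-activated Cre recombinase driven by the endothelial Cdh5 promoter, so that Shb is deleted in cells that use this promoter. The controls were wild type (WT), tumour cells were injected after tamoxifen and the mice were killed 14 to 16 days later. As described, the genotypes differ in Shb, an adaptor protein of receptor signalling, and in carrying Cre, and these cannot be told apart here. The labels' protocol also names a Vav1-cre line and a magnetic step for CD45-positive cells before the CD31 sort, and no sample title is assigned to that line. There were 3 WT and 2 KO libraries in experiment 1, 3 and 4 in experiment 2, 2 and 2 in experiment 3, and 3 and 2 in experiment 4.

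A pair of columns carried the same header, KO replicate 3 of experiment 2, and are called KO replicate 3a and 3b here in column order. No column named KO replicate 3 of experiment 4, and both were kept in experiment 2. Some libraries shared a tumour, per the series' design text, which does not say which. Genes above 0 TPM numbered 12178 to 20526 per library, and the reads behind a TPM are not recorded, so no counting error can be given. Shb ranged from 6.00 to 52.7 TPM in KO and from 17.3 to 74.3 TPM in WT, and the groups overlapped. In experiments 2 and 4 each KO library was below each WT library, with means of 17.8 against 50.4 TPM and 6.99 against 27.7 TPM. In experiments 1 and 3 the KO mean was not the lower one, with 44.5 against 42.1 TPM and 26.7 against 25.0 TPM, so there the level of Shb goes against the label. The floxed part of Shb is not given in the sources used here, so reads outside it could hide a deletion, and KO and WT are used throughout for libraries labelled so. The summed level of 10 endothelial markers ran from 1556 to 10165 TPM in KO and from 532 to 10516 TPM in WT. Pecam1, which encodes CD31, was lowest in 3 libraries: WT replicate 2 of experiment 4 (95.04 TPM), KO replicate 2 of that experiment (242 TPM) and, in experiment 2, WT replicate 1 (461 TPM). The summed macrophage list of 10 genes ran from 27.7 to 237 TPM in KO and from 50.4 to 6147 TPM in WT, and of 6 tumour epithelial markers Krt18, Krt19, Epcam, Krt7 and Cdh1 were listed at 0 in most libraries. These values cannot tell fewer cells of a type from less RNA per cell.

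The mitochondrial genome is a small circle present in many copies per cell and transcribed from both strands as long precursors. The precursors are cut mainly at the tRNAs that lie between the other genes, releasing mRNAs for core subunits of the respiratory chain and ATP synthase and the rRNAs of the mitochondrial ribosome. All other proteins of mitochondria come from nuclear genes, and endothelial cells are known for drawing much of their ATP from glycolysis. The nuclear genome also holds inserted copies of mitochondrial DNA, which are generally not translated but can be near identical in sequence.

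In the annotation 12 mRNAs and both rRNAs lay on the plus strand, and mt-Nd6 lay on the minus strand. The mRNA genes ran from 204 to 1824 bases and several overlapped. The end of mt-Atp8 shared 43 bases with the start of mt-Atp6, mt-Nd4l shared 7 bases with mt-Nd4, and mt-Nd5 shared 14 bases with mt-Nd6 on the opposite strand. Reads from shared bases cannot be assigned to one gene of such a pair, and neither the counting program nor its use of strand is given in the sources used here.

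The 2 shortest mRNA genes carry much of what follows, so their sequences are shown from GENCODE M21 on GRCm38. In mt-Atp8 (ENSMUSG00000064356, chrM:7766-7969, plus strand), a coding gene for a small ATP synthase subunit, capitals mark the bases shared with mt-Atp6. In mt-Nd4l (ENSMUSG00000065947, chrM:9877-10173, plus strand), a coding gene for a small subunit of complex I, capitals mark the only bases not repeated in the nuclear copy Gm10222 described next.
mt-Atp8: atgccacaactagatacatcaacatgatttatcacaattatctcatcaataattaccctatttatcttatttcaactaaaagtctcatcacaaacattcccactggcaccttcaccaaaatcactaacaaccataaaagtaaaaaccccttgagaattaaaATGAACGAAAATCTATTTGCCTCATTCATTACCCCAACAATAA
mt-Nd4l: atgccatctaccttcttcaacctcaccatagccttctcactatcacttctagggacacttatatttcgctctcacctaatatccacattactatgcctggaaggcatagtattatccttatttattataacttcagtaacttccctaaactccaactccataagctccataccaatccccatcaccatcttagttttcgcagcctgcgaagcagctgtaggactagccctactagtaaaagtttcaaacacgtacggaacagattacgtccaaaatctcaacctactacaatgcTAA
The first 294 bases of mt-Nd4l were identical to the copy, and no annotated nuclear gene matched mt-Atp8 at the thresholds described next, which ask for nearly its full length. The 3 capital bases of mt-Nd4l lie in the 7 bases shared with mt-Nd4. They are repeated in Gm28439, a nuclear copy of mt-Nd4 also described next, so they do not mark a read as mitochondrial.

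Nuclear copies were searched for among annotated nuclear genes with at least 95% identity to a mitochondrial gene over at least 200 bases. The search found 11, each an annotated pseudogene, and 9 of them exceeded 1 TPM in at least 10 libraries. A cluster of 7 lay side by side on the minus strand of chromosome 1, in the order of their mitochondrial counterparts, between positions 24611535 and 24616197. Gm28439 matched mt-Nd4 over 876 bases, Gm10222 matched mt-Nd4l over 294, Gm28437 matched mt-Co3 over 783, Gm10925 matched mt-Atp6 over 678 and Gm28661 matched mt-Co2 over 681, each without a mismatch. Gm29216 matched the last 483 bases of mt-Co1 with 1 mismatch, A1066T, and Gm28438 matched mt-Nd3, a complex I subunit gene, over 345 bases with 1 mismatch, T3C, both counted from 1 at the start of the mitochondrial gene with its base first. The start of both sequences is shown with that base in capitals, as the one annotated base of the matched stretch by which a read could be placed (chrM:9459-9489, plus strand, and chr1:24613089-24613119, minus strand).
mt-Nd3: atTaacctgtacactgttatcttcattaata
Gm28438: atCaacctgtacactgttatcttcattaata
The last 43 bases of mt-Atp8, shared with mt-Atp6, are thus repeated in Gm10925. The 233 bases between Gm10925 and Gm28661 hold no annotated copy and are as long as the matching mitochondrial stretch of 233 bases, which holds most of mt-Atp8. Whether they repeat it was not tested, so mt-Atp8 cannot be taken as free of nuclear copies.
The other 4 copies matched at 95.2% to 97.6% and held little signal, with Gm13341 (mt-Co2) at a median of 5.88 TPM and Gm13340 (mt-Co1) at no more than 20.9 TPM over the 21 libraries.

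The chromosome 1 copies held a large part of the signal. All 11 copies together made up 27.3% to 41.7% of the summed TPM of copies and 13 mRNAs, with a mean of 34.6% ± 4.43 over the 10 KO libraries (SD) and 34.0% ± 3.90 over the 11 WT libraries. Gm28661 was listed at a median of 9519 TPM, against 2359 TPM for mt-Co2, and took 62.9% to 93.4% of the TPM of that pair. Where the sequences are identical, a read cannot be assigned from its bases alone, so the values of each pair are uncertain.

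The split was not constant between libraries. For mt-Nd4l it was the widest: Gm10222 took 100% of the pair in 6 libraries, in which mt-Nd4l was listed at 0, and 0% in KO replicate 1 of experiment 2, in which mt-Nd4l stood at 495 TPM. The 6 libraries were KO replicate 2 and WT replicate 3 of experiment 1, KO replicates 2 and 3a and WT replicate 3 of experiment 2, and KO replicate 1 of experiment 4. In them Gm10222 stood at 93.4, 514, 149, 410, 247 and 991 TPM, in that order. The listed zeros of mt-Nd4l were thus matched by signal under its copy in each of these libraries, and they occurred in 4 KO and 2 WT libraries.

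For mt-Nd3 the copy Gm28438 took from 17.1% of the pair in WT replicate 1 of experiment 4 to 97.3% in KO replicate 3b of experiment 2, with a median of 81.8%. Gm28437 took 24.6% to 81.8% of the mt-Co3 pair and Gm10925 46.7% to 81.3% of the mt-Atp6 pair. The copies of mt-Co1 and mt-Nd4 took less, with Gm29216 at 0.422% to 16.2% and Gm28439 at 0.0718% to 2.73%. Values that follow are as deposited unless the copies are said to be added, and the addition was chosen after the values were seen.

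**Figure D1:**
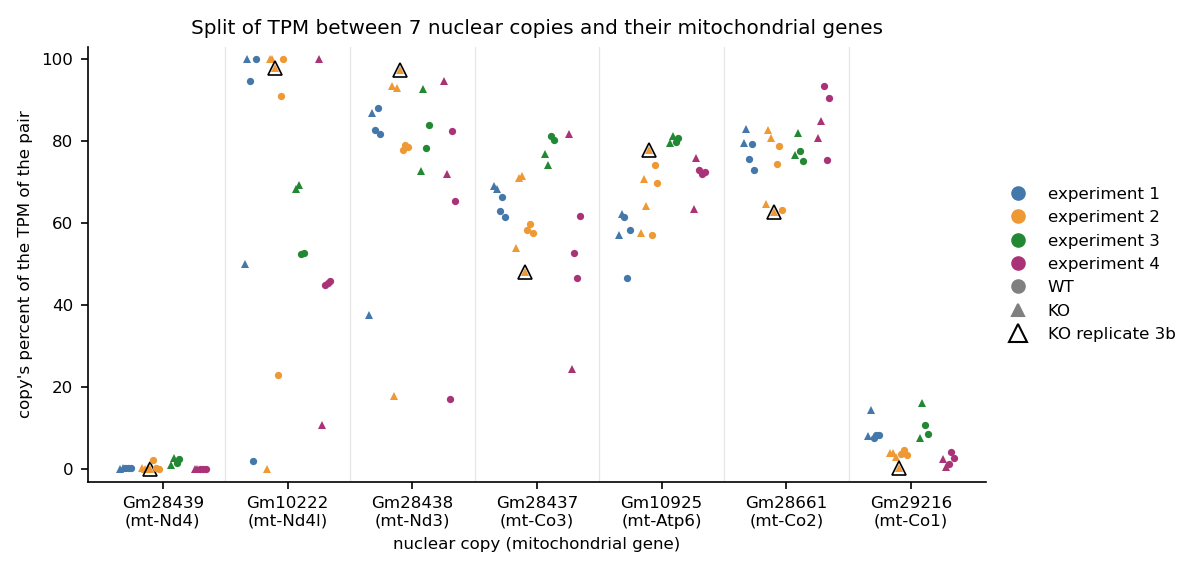
Each point is 1 library and shows what percent of the TPM of a pair was listed under the nuclear copy (vertical axis) for 7 copies on chromosome 1 (horizontal axis, with the mitochondrial gene), coloured by experiment, with circles for WT and triangles for KO. Gm10222 spans 0% to 100%, whereas Gm28439 stays at or below 2.73%.

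The 37 mitochondrial genes together took from 1.27% of the TPM in WT replicate 1 of experiment 2 to 23.01% in KO replicate 2 of experiment 4. The KO libraries averaged 7.36% ± 7.10 (SD, n = 10, median 4.87%) and the WT libraries 7.02% ± 5.40 (SD, n = 11, median 5.65%), so the difference of the means was far smaller than the spread within a genotype. Adjusted for experiment, the mitochondrial share of TPM in KO minus WT was 0.963 percentage points. It was -0.524 when KO replicate 2 of experiment 4 was left out and -0.225 when KO replicate 3b was, so its sign rested on either library. Without the 3 libraries lowest in Pecam1 this difference was -0.636, and with KO replicate 3b placed in experiment 4 it was 0.171.

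Within experiment 1 the share was 3.59% and 2.35% in the KO libraries and 2.36%, 11.4% and 7.06% in the WT libraries. In experiment 2 it was 2.70%, 1.40%, 7.94% and 17.2% in KO replicates 1, 2, 3a and 3b and 1.27%, 3.78% and 1.54% in WT. In experiment 3 all 4 libraries lay between 5.41% and 5.70%, while in experiment 4 the KO libraries had 4.33% and 23.01% and the WT libraries 6.25%, 17.7% and 14.6%. KO and WT overlapped in experiments 1, 2 and 4. In experiment 3 the KO libraries (5.41% and 5.70%) lay on both sides of the WT libraries (5.50% and 5.65%).

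Of the 3 libraries lowest in Pecam1, those of experiment 4 had the highest shares of all (23.01% and 17.7%) and WT replicate 1 of experiment 2 had the lowest. In KO replicate 2 of experiment 4 nuclear protein-coding genes held 22.6% of the TPM, against a median of 65.8% over all libraries. The 6 tumour epithelial markers summed to 140 TPM in this library, the highest of KO (from 0), and to 272 TPM in WT replicate 2 of experiment 4, the highest of WT (from 1.58). The part of these features in the shares was not tested. With the copies added the shares ran from 1.72% to 34.1%.

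**Figure D2:**
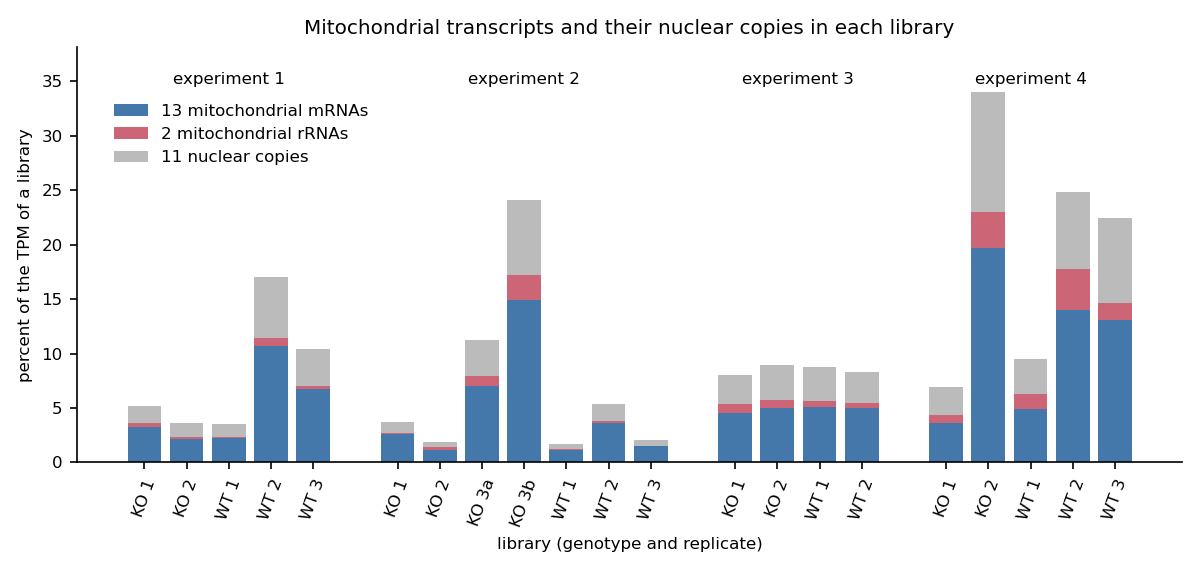
Bars give the percent of a library's TPM (vertical axis) held by the 13 mRNAs, the 2 rRNAs and the 11 nuclear copies, stacked from 0, in the 21 libraries arranged by experiment (horizontal axis, genotype and replicate). KO and WT bars are intermixed, the 4 libraries of experiment 3 are nearly equal, and KO replicate 2 of experiment 4 is the tallest.

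The mitochondrial rRNAs are mt-Rnr1, the 12S RNA of the small subunit (chrM:70-1024), and mt-Rnr2, the 16S RNA of the large subunit (chrM:1094-2675). The library kit included rRNA depletion, per the labels' protocol, and its part in these levels was not tested. The rRNAs together held 3.59% to 21.2% of the TPM of the 37 genes, and the mRNAs held nearly all the rest.

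mt-Rnr2 ranged from 353 to 7866 TPM in KO (median 2681 TPM) and from 251 to 10043 TPM in WT (median 1639 TPM), and the groups overlapped. Its experiment-adjusted difference of log2(TPM + 1), KO minus WT, was 1.07 (SE 0.53, 95% interval -0.027 to 2.17), with an adjusted p of 0.820 in limma. This was the smallest p among the mitochondrial genes and did not pass. mt-Rnr1 ranged from 356 to 25613 TPM in KO and from 300 to 27004 TPM in WT, and its log2 difference was 0.35 (SE 0.53, adjusted p = 0.951 in limma). That value was below 0 without KO replicate 3b of experiment 2 (-0.027).

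The ratio of mt-Rnr2 to mt-Rnr1 was at most 1.11 in every WT library and exceeded it in 3 KO libraries. These were KO replicate 2 of experiment 2 with 6.44, KO replicate 3a of experiment 2 with 2.99 and KO replicate 2 of experiment 1 with 2.03. The other 7 KO libraries had 0.307 to 0.663, within the WT range of 0.273 to 1.11. The ratio, singled out after its values were seen, was not tested.

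The mRNAs are ordered here by the complex of their proteins. Complex I, which passes electrons from NADH to ubiquinone, takes 7 mitochondrial subunits. Over the 21 libraries mt-Nd1 had a median of 3597 TPM, mt-Nd4 2035 TPM and mt-Nd2 1339 TPM, and mt-Nd5 (913 TPM) and mt-Nd6 (889 TPM) stood close together. mt-Nd3 (482 TPM) and mt-Nd4l (434 TPM) were the lowest, and these are the pairs with the most variable split, with 2504 and 875 TPM once the copies were added. mt-Nd6, the only mRNA of the minus strand, ranged from 327 to 4232 TPM in KO and from 434 to 2955 TPM in WT.

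mt-Cytb, the mitochondrial subunit of complex III, had a median of 3645 TPM. In complex IV, cytochrome c oxidase, the catalytic subunit gene mt-Co1 was the highest of all with 18283 TPM, while mt-Co3 had 2593 TPM and mt-Co2 2359 TPM. With the copies added the medians were 19804 TPM for mt-Co1, 8360 TPM for mt-Co3 and 11609 TPM for mt-Co2. In complex V, ATP synthase, mt-Atp6 had 2155 TPM, or 8736 TPM with its copy, and mt-Atp8 had 1252 TPM. mt-Co1 was the highest mRNA in 21 of 21 libraries, and in 18 of 21 with the copies added. The other 12 mRNAs each differed from their neighbours in the order of medians by less than the SD of either gene between libraries.

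**Figure D3:**
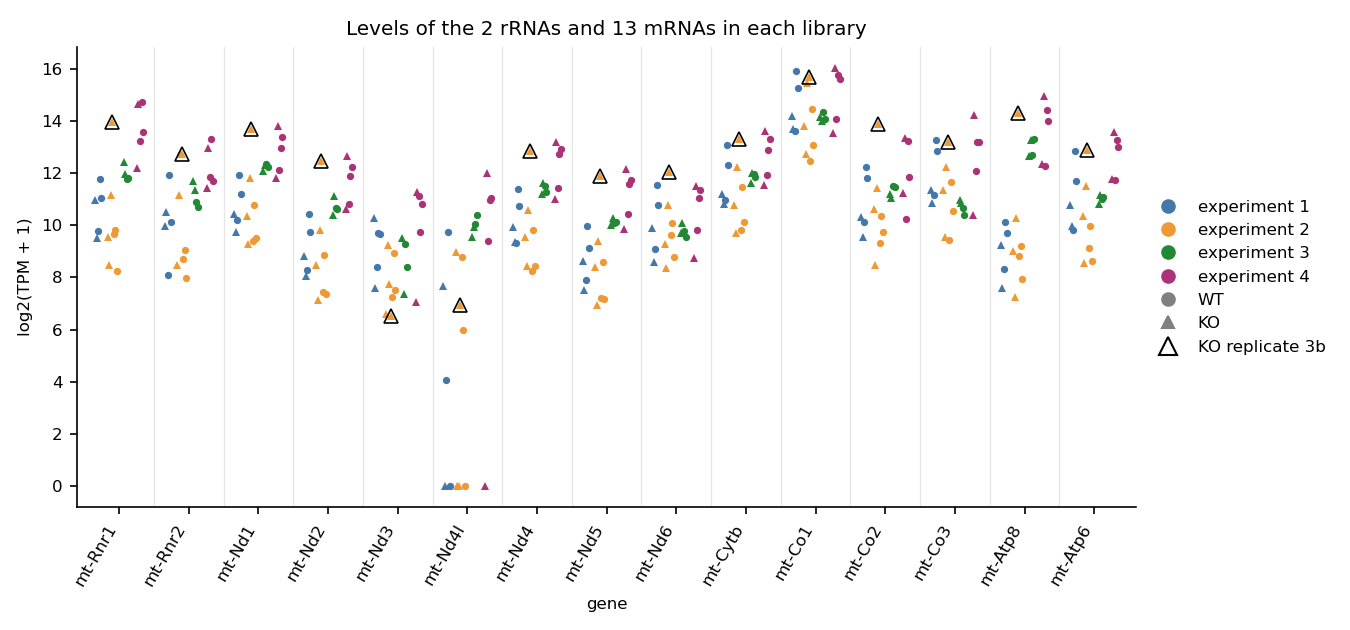
Each point is 1 library, with log2(TPM + 1) on the vertical axis and the 2 rRNAs and 13 mRNAs on the horizontal axis, coloured by experiment, with circles for WT and triangles for KO. mt-Co1 is the highest gene, mt-Nd4l has 6 libraries at 0, and KO replicate 3b of experiment 2 (open triangle) stands above the other libraries of its experiment for most genes.

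The comparison of KO with WT called no mitochondrial gene. In limma over 13503 genes 0 of 15 passed an adjusted p of 0.05 and 0 had an unadjusted p under 0.05, against 1 of all genes (0.00741%) and 794 (5.88%) respectively. Of the 15, 11 had a difference above 0 (36% of all genes did) and 4 below (64%). The median log2 difference was 0.14 over the 13 mRNAs and -0.11 over all genes tested. The mRNA median fell below 0 when single libraries were left out: -0.16 for KO replicate 3b and -0.026 for WT replicate 1 of experiment 2, and -0.072 for KO replicate 2 and -0.035 for WT replicate 1 of experiment 4. It was furthest below 0 without experiment 2 (-0.45) and without both KO replicate 3 columns (-0.40). It was also below 0 without the 3 libraries lowest in Pecam1 (-0.15), after quantile normalization (-0.089) and with KO replicate 3a or 3b placed in experiment 4 (-0.079). The highest value, without experiment 1, was 0.58.

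mt-Nd4l had the largest difference, -1.64 on the log2(TPM + 1) scale (SE 1.78, 95% interval -5.39 to 2.11, limma adjusted p = 0.919). With its copy added the difference was -0.21 (SE 0.50, interval -1.23 to 0.82), with a mean level of 1821 ± 1994 TPM over 10 KO libraries (SD) and 1549 ± 1367 TPM over 11 WT libraries. mt-Nd3 went from -0.60 (SE 0.48) to 0.011 (SE 0.35) on the same addition. For both genes the interval was narrower with the copies than without.

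mt-Co1 averaged 26399 ± 20568 TPM (SD) over 10 KO libraries and 28300 ± 19895 TPM over 11 WT libraries, a log2 difference of 0.021 (SE 0.45, 95% interval -0.90 to 0.94). mt-Atp8 averaged 7591 ± 10559 TPM (SD) over the KO libraries and 5709 ± 7327 TPM over the WT libraries, a log2 difference of 0.31 (SE 0.63, interval -0.99 to 1.62). KO and WT ranges overlapped for all 15 genes, a count that was not made over all genes tested. The 95% intervals of 13 of the 15 genes reached beyond 1 log2 unit in at least one direction, so these data do not show that the levels are equal. A difference of the genotype effect between experiments was not detected: 0 of 15 mitochondrial genes passed limma's interaction test (0 of all genes, 0%), and 0 had an unadjusted p under 0.05 (518 of all genes, 3.84%).

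**Figure D4:**
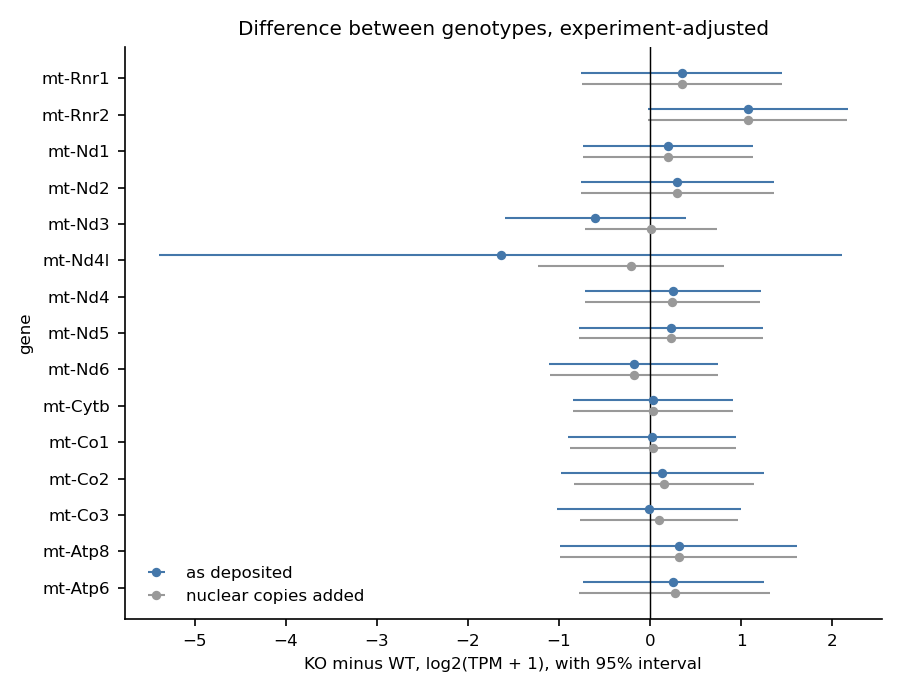
Points give the experiment-adjusted difference KO minus WT on the log2(TPM + 1) scale (horizontal axis) with 95% intervals for 15 mitochondrial genes (vertical axis), as deposited in blue and with nuclear copies added in grey. All intervals include 0, and those of mt-Nd4l and mt-Nd3 shrink when the copies are added.

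More mitochondrial genes were called between experiments than between genotypes. In limma's F test of the experiment terms 7 of 15 mitochondrial genes passed, against 3931 of 13503 genes (29.1%). They were mt-Rnr1 (adjusted p = 0.00592), mt-Nd1 (0.0223), mt-Nd2 (0.0122), mt-Nd4 (0.0162), mt-Nd5 (0.0146), mt-Atp6 (0.0298) and mt-Atp8 (0.00175). The count was 3 without KO replicate 2 of experiment 4 and 11 with KO replicate 3b placed in experiment 4. Without the 3 libraries lowest in Pecam1 it was 1, mt-Atp8 (adjusted p = 0.0319), while 1847 genes passed in all. It was also 1, again mt-Atp8, without experiment 2 and without experiment 4. Of all genes 4 of 12026 passed without experiment 2, and 1715 of 12913 without experiment 4.

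mt-Atp8 passed in all 39 fits of this comparison, the one above and 38 alternatives. It stood at 609 and 192 TPM in KO and 315, 1114 and 826 TPM in WT of experiment 1. In experiment 2 it stood at 521, 153, 1252 and 20064 TPM in KO replicates 1, 2, 3a and 3b and at 452, 592 and 244 TPM in WT. The values were 6374 and 9748 TPM in KO and 6561 and 10093 TPM in WT of experiment 3, and 5183 and 31819 TPM in KO and 4954, 21526 and 16124 TPM in WT of experiment 4. Each library of experiments 3 and 4 was thus above each library of experiments 1 and 2 except KO replicate 3b, in both genotypes.

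mt-Rnr1 was the only other of the 15 genes with such a separation. It ran from 3529 to 27004 TPM in experiments 3 and 4 and from 300 to 3513 TPM in experiments 1 and 2 with KO replicate 3b set apart. Over all genes tested 8 (0.0592%) had all libraries of experiments 3 and 4 higher and 25 (0.185%) had all of them lower. This grouping of experiments was chosen after the values were seen and is given as a description.

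Levels in TPM depend on everything else in a library, so the mRNAs were also taken as shares of their own sum. The shares have a fixed sum, so a higher share of any mRNA lowers those of others. Signal listed under the nuclear copies is left out of the deposited shares, which therefore vary with the split described above. mt-Co1 made up 56.1% to 62.1% of the 13 mRNAs in experiment 1 and 48.4% to 64.3% in experiment 2 apart from KO replicate 3b. It made up 32.6% to 40.4% in experiment 3, 33.1% to 39.8% in experiment 4 and 35.4% in KO replicate 3b. Thus mt-Co1 held over 48% in all of the first set and at most 40.4% in the second, whichever the genotype.

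The reverse held for mt-Atp8, whose share was 0.90% to 1.85% in experiment 1 and 1.35% to 3.94% in experiment 2 apart from KO replicate 3b. It was 12.8% to 20.3% in experiment 3, 10.1% to 16.2% in experiment 4 and 13.5% in KO replicate 3b. From experiment 1 to experiment 4 the mean log2 share changed by 3.44 for mt-Atp8 and by -0.69 for mt-Co1. In TPM mt-Co1 was called between experiments in 0 of 39 fits (adjusted p = 0.425 in limma's F test on all libraries). Its lower share thus does not show a lower level. mt-Nd2, mt-Nd4 and mt-Nd5 were separated in the same direction as mt-Atp8, with mt-Nd4 at 2.16% to 3.06% in experiments 1 and 2 (KO replicate 3b apart) and 4.69% to 6.28% in experiments 3 and 4.

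With the copies added, the shares of mt-Nd3 varied less, for example 4.08% to 5.72% in experiment 1 where the deposited values gave 0.773% to 3.77%. mt-Atp6 then joined the separated genes, with 6.42% to 8.55% in experiments 1 and 2 (KO replicate 3b apart) and 12.2% to 16.6% in experiments 3 and 4. mt-Co1 (36.2% to 45.2% against 19.8% to 28.0%) and mt-Atp8 (0.561% to 2.83% against 6.06% to 12.9%) remained apart. mt-Co2 reached 18.5% to 22.6% in experiment 4 against 11.3% to 15.8% in the others, KO replicate 3b excepted at 18.6%. KO and WT overlapped in the share of each of the 13 mRNAs, with and without the copies.

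KO replicate 3b carries a header of experiment 2, but its share lay within the range of experiments 3 and 4 for 10 of the 13 mRNAs and within that of the other experiment 2 libraries for 4. In TPM the counts were 12 and 2 of the 15 mRNAs and rRNAs. These are ranges of 9 and 6 libraries. The counts were not made over all genes, so they are not shown to be particular to mitochondrial genes. The genes of a library are also not independent of each other. All 37 together took 17.2% of the TPM in KO replicate 3b, 1.27% to 7.94% in the other experiment 2 libraries and 4.33% to 23.01% in experiments 3 and 4. In the deposited order the column stands at position 18, directly before those of experiment 4, which start at position 19. It is written with up to 6 decimals, as are all columns of experiment 4, where the other columns of experiments 1 to 3 have 2. The labels list a KO replicate 3 of experiment 4 for which no column is named. The header alone was followed, and whether the column belongs to experiment 4 was not tested.

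**Figure D5:**
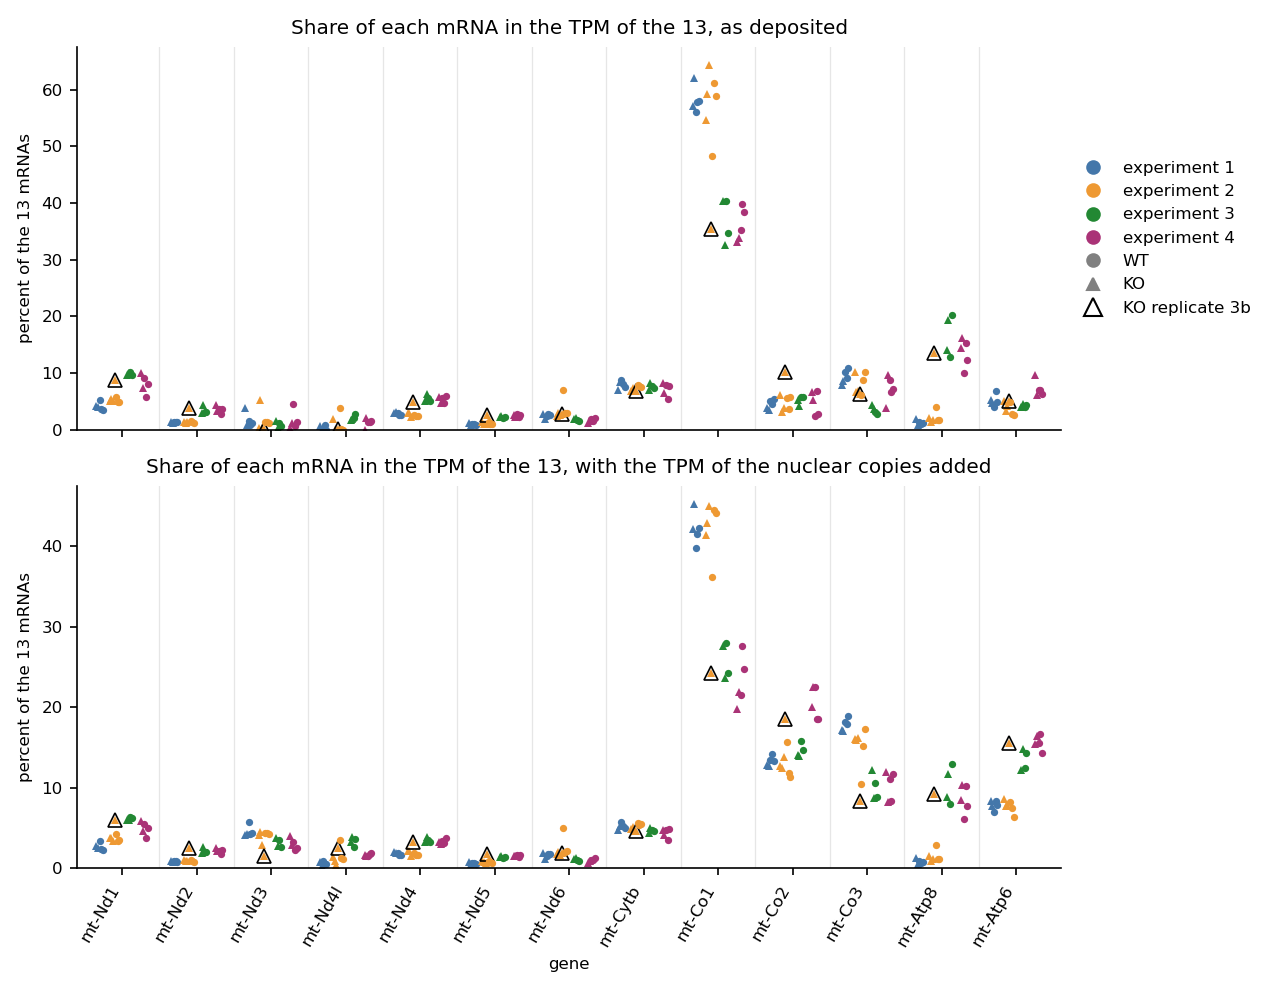
Each point is 1 library and gives the percent of the summed TPM of the 13 mRNAs (vertical axis, from 0) held by each mRNA (horizontal axis), as deposited above and with the nuclear copies added below, coloured by experiment, with circles for WT and triangles for KO. The share of mt-Co1 is high in experiments 1 and 2 and low in experiments 3 and 4, that of mt-Atp8 is the reverse, and KO replicate 3b (open triangle) lies with experiments 3 and 4 for both.

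The 22 tRNA genes, between 59 and 75 bases long, were almost absent from the table. Only mt-Ts1, a serine tRNA on the minus strand (chrM:6870-6938) whose end shares 3 bases with the end of mt-Co1 on the opposite strand, was above 0, in WT replicate 1 of experiment 1 (20.2 TPM) and WT replicate 1 of experiment 2 (9.60 TPM). Its whole sequence is shown as the one tRNA gene with a value, and the reads were up to 150 bases long.
mt-Ts1: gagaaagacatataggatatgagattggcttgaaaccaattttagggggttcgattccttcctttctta
Of 1369 nuclear genes of at most 80 bases 19 (1.39%) were above 0 in any library, against 25144 of 43737 longer nuclear genes (57.5%). The listed zeros thus extend to nuclear genes of this length and are no measure of tRNA levels.

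Of the nuclear genes for subunits of the respiratory chain and ATP synthase, including complex II, which has no mitochondrially encoded subunit, none was called between KO and WT. Of the nuclear subunit genes tested, 32 of 36 in complex I, 4 of 4 in complex II, 7 of 9 in complex III, 10 of 10 in complex IV and 14 of 15 in complex V had a difference below 0, where 64% of all genes did. The list medians on the log2(TPM + 1) scale were -0.31, -0.44, -0.54, -0.53 and -0.41 in that order, against -0.11 over all genes. Uqcr10, a small subunit of complex III, had the smallest p of these lists, with a mean of 52.2 ± 49.8 TPM (SD) over 10 KO libraries, 89.7 ± 55.0 TPM over 11 WT libraries and a log2 difference of -1.51 (SE 0.49, unadjusted limma p = 0.00519, adjusted p = 0.820). Ndufa5 of complex I (-1.35, SE 0.51), Sdhd of complex II (-1.08, SE 0.43), Cox4i1 of complex IV (-0.55, SE 0.25) and Atp5e of complex V (-1.21, SE 0.55) had the smallest p of their lists, each with the same adjusted p of 0.820. In the test between experiments, which 29.1% of all genes passed, 10 of 10 complex IV and 14 of 15 complex V genes passed, as did 23 of 36 in complex I, 6 of 9 in complex III and 1 of 4 in complex II. Over all genes the calls of this test went from 3931 to 1847 without the 3 libraries lowest in Pecam1 and to 4 without experiment 2. The lists were not counted again in those settings.

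Genes that maintain mitochondrial DNA showed no call, with 9 of 14 above 0 and a list median of 0.079. Tfam, which packages mitochondrial DNA and starts its transcription, averaged 22.6 ± 13.9 TPM (SD) over the KO libraries and 15.9 ± 5.76 TPM over the WT libraries, a log2 difference of 0.39 (SE 0.32, adjusted p = 0.884 in limma). Among 9 transcription genes tested of 10, Tfb2m, a factor that opens the promoters, had the smallest p, at -1.30 on the log2 scale (SE 0.50, adjusted p = 0.820 in limma). In RNA processing and decay 23 of 26 genes lay below 0 (median -0.22). Trnt1, which adds the CCA end to tRNAs, differed by -0.58 (SE 0.25) and Grsf1, a protein of mitochondrial RNA granules, by -0.65 (SE 0.31), both with an adjusted p of 0.820 in limma. Of the mitochondrial ribosomal protein genes 24 of 33 lay below 0 (median -0.22), and of 8 biogenesis regulators 6 were tested, with 3 on each side of 0.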

How the data were processed

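The authors deposited 1 table of TPM values for 45706 genes and 21 libraries, with decimal commas. The submitters' processing notes name GRCm38, and neither the aligner nor the counting program is given in the sources used here. Read depth cannot be recovered from TPM, so precision rests on the number of libraries. Columns were matched to samples by their headers, and genes to GENCODE M21 (45143 identifiers found). Copies were found with BLASTN 2.17.0+ on transcripts.

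Genes reaching 1 TPM in 10 or more libraries were fitted on log2(TPM + 1) with limma 3.58.1 in R 4.3.3 (trended, robust variance), with experiment and genotype as terms. Tests are two-sided, with Benjamini-Hochberg adjustment over all 13503 genes, and a call is an adjusted p under 0.05. A fold change on this scale understates that of low genes. The fit was tested on simulated data. Libraries from one tumour could not be linked, so p-values measure the spread between libraries.

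The members and lists were chosen with earlier results of these data known. Named genes are all mRNAs and rRNAs, detected tRNAs, copies above the filter and up to 3 genes per list by unadjusted p. Alternatives covered pseudocount, filter, scaling, model terms, the doubtful columns and left-out libraries.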

Additional observations from a re-analysis of the deposited data

Results flagged for a closer look

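Of 60 sets of values checked for a library far from the rest of its group, 15 had one. The groups were the 10 KO libraries and, among them, the 4 KO libraries of experiment 2, and no WT library was checked. The groups overlap and TPM values are skewed, so the number to be had by chance is not known. In TPM, KO replicate 3b stood above the other KO libraries of experiment 2 for mt-Atp8 (20064, next 1252), mt-Rnr1 (15914, next 2294), mt-Co2 (15079, next 2737), mt-Nd4 (7260, next 1515), mt-Nd2 (5640, next 896) and mt-Nd5 (3770, next 666). In the share of the 13 mRNAs with copies added it was highest for mt-Atp6 (15.5%, next 8.55%), mt-Atp8 (9.17%, next 1.46%), mt-Nd1 (6.00%, next 3.78%) and mt-Nd2 (2.58%, next 0.984%), and lowest for mt-Co3 (8.29%, next 16.0%). These sets share 1 library and are not independent of each other.

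KO replicate 2 of experiment 4 was far above the other 9 KO libraries for mt-Co3 (19036 TPM, next 9408), mt-Nd3 (2478 TPM, next 1239) and mt-Nd4l (4085 TPM, next 987). All of these genes share signal with a nuclear copy. With the copies added this library stood at 25246 TPM for mt-Co3 (next 18147) and 8877 TPM for mt-Nd3 (next 3411). For mt-Nd4l it then stood at 4576 TPM, below KO replicate 3b of experiment 2 (5524 TPM). The ratio of mt-Rnr2 to mt-Rnr1 in KO replicate 2 of experiment 2 was 6.44, with the next KO library at 2.99.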

How the results depend on the processing

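No mitochondrial gene was called between KO and WT in any of the 40 alternatives. The replicate block within experiment gave 0 mitochondrial calls, an mRNA median of 0.12 and 0 calls over all genes (1 without the block). Same-numbered libraries correlated at -0.20 to 0.36 in their deviations, with -0.20 for both such pairs of experiment 3 and 0.32 and 0.36 in experiment 4. Where a genotype has 2 libraries in an experiment, their deviations mirror each other, so these values cannot show whether the numbers pair libraries. The main fit did not pair them. Calls between experiments numbered 11 with KO replicate 3b placed in experiment 4, 11 without both KO replicate 3 columns, 1 without the 3 libraries lowest in Pecam1 and 3 to 10 on leaving out 1 library. Over all genes, calls between experiments were 2529 without the filter, 2496 with a common median, 2339 with 3a in experiment 4 and 1847 without the low-Pecam1 libraries, and 2335 (KO replicate 2 of experiment 4 out) to 5015 on leaving out 1 library. Leaving out a whole experiment gave 3767 calls without experiment 1, 4 without experiment 2, 3626 without experiment 3 and 1715 without experiment 4. The mitochondrial calls among them were 9, 1, 9 and 1 in that order.

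The log2 difference KO minus WT changed sign as follows. With quantile normalization it was -0.025 for mt-Atp8 and -0.089 for mt-Co1, and without an experiment term -0.095 for mt-Co1. Placing either KO replicate 3 column in experiment 4 gave -0.079 for mt-Atp8 and -0.081 for mt-Co1. Leaving both out gave -0.25 for mt-Rnr1, -0.37 for mt-Atp8 and -0.40 for mt-Co1. Leaving out experiment 2 gave -0.26, -0.31 and -0.52 for these genes. Without the low-Pecam1 libraries mt-Co1 was at -0.31 and Gabpa at 0.012, against -0.14 for Gabpa as fitted. Without experiment 4 Gabpa was at 0.033 and Yy1 at 0.037, against -0.13 for Yy1 as fitted. Adding copies (chosen after seeing the data) gave 0.011 for mt-Nd3. Leaving out 1 library gave -0.027 to 0.62 for mt-Rnr1, -0.16 to 0.57 for mt-Atp8, -0.19 to 0.26 for mt-Co1, -0.28 to 0.10 for Gabpa and -0.22 to 0.070 for Yy1. The cause was not tested.

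From experiment 1 to 4, the log2 share changed by -1.43 for mt-Co1 and 2.70 for mt-Atp8 as a centred log ratio, and by -0.88 for mt-Co1 with copies added. Leaving out 1 library gave -0.73 to -0.66 and 3.32 to 3.58.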
